A study of Schmidtea mediterranea with 11 samples.

Results

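The 38 transcripts described here were annotated by the study as RNA-binding proteins of the planarian Schmidtea mediterranea. Their level in sorted cells was higher in the differentiated fraction than in the stem cell fraction. For 4 of them no clear RNA-binding homologue was found among the best human matches. The study annotated 300 RNA-binding protein transcripts by their domains and best human match and measured each in X1 cells, the dividing stem cells (neoblasts) collected by flow cytometry, and in Xins cells, the differentiated cells that resist irradiation. A total of 43 transcripts had an X1-Xins log2 difference of -1 or less. Leaving out 4 DEAD-box and DEAH-box helicases and 1 target of the RNAi treatment, mbnl-1 (comp2838), gave the 38 members, of 26562 transcripts in the table. The sorted cells gave none of the levels reported here, and the X1-Xins difference used none of the libraries of treated worms. A filter on low levels, a mean log2(TPM+1) above 1.5 over the 9 libraries with a day label, kept all 38 members and 15492 of the 26562 transcripts. The lowest member, a match to PRDM16 (comp22685), had a mean of 1.56, and no member fell below the filter.

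Levels were measured by RNA-seq of polyadenylated RNA from whole adult worms of the asexual Berlin-1 strain, which descends from 1 individual. Worms received dsRNA against bruli in bruli(RNAi), against 4 muscleblind genes at once (mbnl-1 and those named mbnl-like-3, mbnl-like-2 and mbnl-like-1) in mbnl(RNAi), against a histone gene in Smed-H2B(RNAi), against a piwi gene in Smedwi-2(RNAi), or against gfp, which planarians lack, in control(RNAi). The bruli(RNAi), mbnl(RNAi) and control(RNAi) groups each had 1 library at day 20, 1 at day 25 and 1 at day 30, and Smed-H2B(RNAi) and Smedwi-2(RNAi) had 1 library each with no day label. The days served as the 3 replicates, and the sources used here do not say whether they came from separate cohorts, so p-values measure only the spread between these libraries. Because whole worms were sequenced, fewer cells of a type and less RNA per cell cannot be told apart.

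RNA-binding proteins act on a transcript at every step of its life. Splicing regulators such as the RBFOX, NOVA, PTBP, CELF and MBNL families bind short motifs in introns and exons and promote or block the use of nearby splice sites. Proteins of the Musashi, ELAVL, MEX3, CPEB and PABPC families act mostly later, on the stability and translation of the mature mRNA. Planarians keep a large pool of neoblasts that replaces all differentiated cells, and bruli (a CELF homologue) and the mbnl genes were chosen by the study as splicing regulators of the neoblast and the differentiated state.

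The bruli knockdown was visible in the level of its target. Levels of the mbnl targets are given below, and those of the Smed-H2B and Smedwi-2 targets are not given here. The bruli transcript (comp2592) was at 6.33, 3.33 and 4.27 TPM in bruli(RNAi) at days 20, 25 and 30, against 82.9, 83.1 and 84.9 TPM in control(RNAi). Of the neoblast markers, smedwi-1 was at 8.63 to 26.8 TPM in bruli(RNAi), 212 to 242 TPM in mbnl(RNAi), 51.2 TPM in Smed-H2B(RNAi) and 260.4 TPM in Smedwi-2(RNAi), against 193 to 212 TPM in control(RNAi). The RNA-binding proteins with an X1-Xins difference of 3 or more, 17 in number of which 15 passed the filter and bruli is 1, summed to 316 to 404 TPM in bruli(RNAi), 1011 to 1117 TPM in mbnl(RNAi), 413 TPM in Smed-H2B(RNAi) and 1232 TPM in Smedwi-2(RNAi), against 904 to 975 TPM in control(RNAi). The neoblast transcripts were low in the bruli(RNAi) and Smed-H2B(RNAi) libraries, and not in the others. Between 0 and 2 of the listed neoblast transcripts were at 0 in any library.

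The 38 members stood at moderate levels in whole worms. Their mean levels in control(RNAi) ran between 1.84 and 573 TPM, with a median of 22.7 TPM beside 16.2 TPM over all transcripts kept by the filter. No member was at 0 in any of the 11 libraries. HDLBP (comp553), a match to vigilin, a protein made of many KH domains, and nova-1 (comp679), of the NOVA family of neuronal splicing regulators known from mammals, together held 48.6% to 53.0% of the members' TPM in control(RNAi). All 38 together held 0.170% to 0.173% of the library in bruli(RNAi), 0.171% to 0.187% in mbnl(RNAi), 0.185% in Smed-H2B(RNAi) and 0.168% in Smedwi-2(RNAi), against 0.167% to 0.183% in control(RNAi). The bruli(RNAi) libraries lay within the range of control(RNAi). Without HDLBP and nova-1, the other members summed to 924 to 952 TPM in bruli(RNAi), 889 to 981 TPM in mbnl(RNAi), 979 TPM in Smed-H2B(RNAi) and 849 TPM in Smedwi-2(RNAi), against 857 to 889 TPM in control(RNAi). On that sum, which leaves out HDLBP, all 3 bruli(RNAi) libraries lay above all 3 control(RNAi) libraries. So did the Smed-H2B(RNAi) library and all 3 mbnl(RNAi) libraries, the lowest of these at 889.5 TPM against 889.4 TPM in the highest control(RNAi) library.

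Roles were assigned here by the best human match and were not tested in planarians. By role, the list held 13 splicing regulators, 14 proteins of mRNA stability and translation, 7 proteins with RNA recognition motifs of other roles and 4 transcripts without a clear RNA-binding homologue. The splicing regulators had mean control(RNAi) levels between 2.58 and 328 TPM, with nova-1 at the top and mbnl-like-3 (comp17985) at the bottom. The others of this role were nova-2 (comp12774), esrp-1 (comp5053) and esrp-2 (comp7995), rbfox-2 (comp9461) and rbfox-3 (comp7213), celf-2 (comp14010), ptbp-4 (comp14748), matches to QKI (comp11601 and comp13063) and TIA1 (comp10924), and a match to SF3B6 (comp11998), which in humans is the spliceosome subunit that contacts the branch point. The stability and translation proteins had mean control(RNAi) levels between 10.7 and 573 TPM. They were HDLBP, the poly(A)-binding PABPC1 (comp6574), the polyadenylation element-binding CPEB3 (comp8889), MEX3A (comp6053 and comp7864), the Musashi proteins MSI1 (comp7323 and comp13817) and MSI2 (comp8902), the poly(C)-binding PCBP3 (comp7334 and comp8431), the Hu proteins ELAVL1 (comp11311) and ELAVL4 (comp8376 and comp13151), and RBM38 (comp11304). The other RNA recognition motif proteins had mean control(RNAi) levels between 15.2 and 104 TPM and were matches to RBPMS (comp4296), RBMS1 (comp3832, comp5327 and comp11402) and A1CF (comp2228, comp7056 and comp10996), the last known in mammals as a cofactor of apolipoprotein B mRNA editing. The transcripts without a clear homologue were PRDM16, which in mammals is a zinc-finger transcription factor, and comp3575, comp7710 and comp11619, which had no human match.

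**Figure D1:**
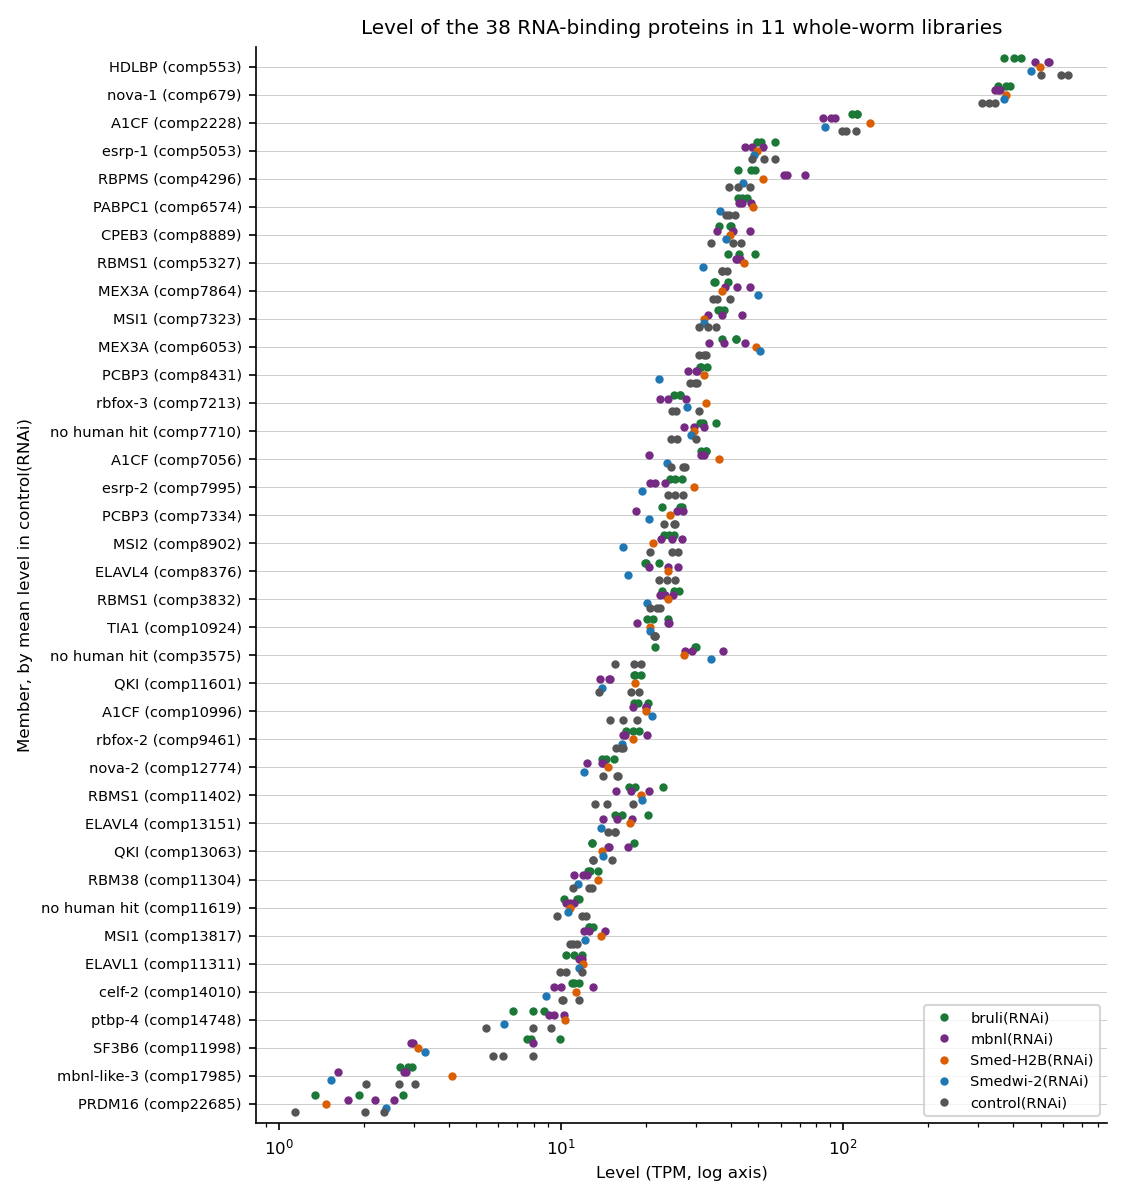
Level of each member in TPM (log axis) in the 11 libraries, ordered by the mean of the 3 control(RNAi) libraries, with 1 point per library. Colours run from bruli(RNAi) at the top of each row to control(RNAi) at the bottom. HDLBP and nova-1 stand above all other members in every library, and for most members the points of the 5 treatments lie close together.

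The bruli(RNAi) libraries were compared with control(RNAi) since the study asked how these regulators act on the balance of neoblasts and differentiated cells. Few of the members passed the threshold, and a member without a call was not thereby shown to be unchanged. In limma on log2(TPM+1) with day as a block and Benjamini-Hochberg adjustment over the 15492 transcripts, 3 of 38 members were higher in bruli(RNAi) (all transcripts 6.75%) and 1 was lower (all transcripts 11.3%). The median difference of the members was 0.09 on the log2 scale, beside 0.00 over all transcripts, and 31 of 38 differences were above 0, beside 50.8% of all transcripts. The members were chosen as higher in differentiated cells, and neoblast transcripts were low in bruli(RNAi). The direction of these differences is therefore not independent of that choice. This holds for every comparison between treatments that differ in neoblast transcripts. In 13 members all 3 bruli(RNAi) libraries lay above all 3 control(RNAi) libraries (all transcripts 14.8%), and in 1 member they lay below (all transcripts 18.6%). The 95% interval of the difference lay inside ±0.5 for 30 of 38 members, beside 48.1% of all transcripts. Differences on this scale understate the change of transcripts at a few TPM.

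HDLBP, the most abundant member, was the only member lower in bruli(RNAi). It was at 402, 425 and 370 TPM in bruli(RNAi) at days 20, 25 and 30, at 476, 535 and 533 TPM in mbnl(RNAi), at 498 TPM in Smed-H2B(RNAi) and at 464 TPM in Smedwi-2(RNAi), against 501, 590 and 627 TPM in control(RNAi). All 3 bruli(RNAi) libraries lay below every other library. The difference from control(RNAi) was -0.52 (SE 0.09, limma adjusted p = 0.00544), with -0.32, -0.47 and -0.76 at days 20, 25 and 30. The call held without any single library, but not without all libraries of day 25 (limma adjusted p = 0.0970) or of day 30 (limma adjusted p = 0.0648).

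Of the members higher in bruli(RNAi), comp3575, which has no human match, differed most. It was at 21.5, 29.8 and 30.1 TPM in bruli(RNAi), at 27.4, 29.0 and 37.4 TPM in mbnl(RNAi), at 27.2 TPM in Smed-H2B(RNAi) and at 34.0 TPM in Smedwi-2(RNAi), against 15.6, 19.2 and 18.1 TPM in control(RNAi). Every library of a knockdown lay above every control(RNAi) library. The difference in bruli(RNAi) was 0.58 (SE 0.11, limma adjusted p = 0.00687), and the call was lost without the bruli(RNAi) library of day 25 (limma adjusted p = 0.0536).

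MEX3A (comp6053) belongs to a family of KH-domain proteins known in C. elegans and mammals as repressors of their target mRNAs. It was at 37.3, 41.6 and 41.6 TPM in bruli(RNAi), at 33.3, 37.8 and 44.7 TPM in mbnl(RNAi), at 49.1 TPM in Smed-H2B(RNAi) and at 50.7 TPM in Smedwi-2(RNAi), against 32.7, 30.9 and 31.98 TPM in control(RNAi). The control(RNAi) libraries were again the 3 lowest of the 11. The difference in bruli(RNAi) was 0.32 (SE 0.10, limma adjusted p = 0.0458). This call did not hold without the bruli(RNAi) library of day 20, 25 or 30 (limma adjusted p = 0.0786, 0.200 and 0.110), the mbnl(RNAi) library of day 25 (limma adjusted p = 0.0782) or the control(RNAi) library of day 25 or 30 (limma adjusted p = 0.160 and 0.191), nor with the 3 control(RNAi) libraries quantile-normalized among themselves (limma adjusted p = 0.0567). The second MEX3A match (comp7864) was at 38.9, 34.9 and 35.1 TPM in bruli(RNAi), at 37.97, 42.1 and 46.8 TPM in mbnl(RNAi), at 37.0 TPM in Smed-H2B(RNAi) and at 50.0 TPM in Smedwi-2(RNAi), against 34.5, 39.8 and 35.6 TPM in control(RNAi), so that its bruli(RNAi) and control(RNAi) libraries overlapped.

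The transcript comp7710, also without a human match, was at 35.5, 31.0 and 31.8 TPM in bruli(RNAi), at 32.01, 29.5 and 27.4 TPM in mbnl(RNAi), at 29.6 TPM in Smed-H2B(RNAi) and at 29.0 TPM in Smedwi-2(RNAi), against 29.9, 25.8 and 24.5 TPM in control(RNAi). Its bruli(RNAi) libraries lay above the control(RNAi) libraries by a small margin at each day. The difference was 0.29 (SE 0.08, limma adjusted p = 0.0333). The call did not hold without the bruli(RNAi) library of day 20, 25 or 30 (limma adjusted p = 0.0564, 0.108 and 0.138), the mbnl(RNAi) library of day 25 (limma adjusted p = 0.0615) or the control(RNAi) library of day 25 or 30 (limma adjusted p = 0.113 and 0.135). Without the day block, 1 of the 3 higher members, comp3575, remained past the threshold.

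The 9 members that the study named include most of the splicing regulators, and none of them passed the threshold in bruli(RNAi). nova-1 came nearest, at 377, 354 and 388 TPM in bruli(RNAi), 344, 352 and 359 TPM in mbnl(RNAi), 376 TPM in Smed-H2B(RNAi) and 372 TPM in Smedwi-2(RNAi), against 311, 328 and 344 TPM in control(RNAi). Its difference in bruli(RNAi) was 0.19 (SE 0.07, limma adjusted p = 0.0837), with all 3 bruli(RNAi) libraries above the control(RNAi) libraries. With each library centred on its median, nova-1 passed (difference 0.23, limma adjusted p = 0.0321). nova-2 was at 14.4, 15.4 and 14.0 TPM in bruli(RNAi), 14.0, 12.3 and 14.1 TPM in mbnl(RNAi), 14.6 TPM in Smed-H2B(RNAi) and 12.0 TPM in Smedwi-2(RNAi), against 14.1, 15.9 and 15.8 TPM in control(RNAi). The NOVA members thus differed in level by more than an order of magnitude, and the bruli(RNAi) libraries of nova-2 overlapped the control(RNAi) libraries.

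The ESRP proteins are known in mammals as splicing regulators of epithelial cells. esrp-1 was at 57.2, 49.6 and 50.9 TPM in bruli(RNAi), 47.6, 44.7 and 52.1 TPM in mbnl(RNAi), 49.5 TPM in Smed-H2B(RNAi) and 48.1 TPM in Smedwi-2(RNAi), against 52.5, 57.4 and 47.4 TPM in control(RNAi). esrp-2 was at 26.9, 24.4 and 25.3 TPM in bruli(RNAi), 20.6, 21.5 and 23.3 TPM in mbnl(RNAi), 29.7 TPM in Smed-H2B(RNAi) and 19.4 TPM in Smedwi-2(RNAi), against 25.4, 26.9 and 23.9 TPM in control(RNAi). Both had bruli(RNAi) differences of 0.01 (SE 0.10 for esrp-1 and 0.09 for esrp-2), and the mbnl(RNAi) libraries of esrp-2 lay below its control(RNAi) libraries without passing the threshold (difference -0.21, limma adjusted p = 0.211).

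The RBFOX proteins bind UGCAUG motifs beside alternative exons. rbfox-2 was at 17.9, 18.9 and 17.0 TPM in bruli(RNAi), 16.6, 16.8 and 20.2 TPM in mbnl(RNAi), 17.9 TPM in Smed-H2B(RNAi) and 16.5 TPM in Smedwi-2(RNAi), against 16.6, 16.4 and 15.6 TPM in control(RNAi). rbfox-3 was at 26.3, 25.1 and 26.5 TPM in bruli(RNAi), 27.8, 22.4 and 23.9 TPM in mbnl(RNAi), 32.7 TPM in Smed-H2B(RNAi) and 28.0 TPM in Smedwi-2(RNAi), against 30.8, 24.6 and 25.6 TPM in control(RNAi). The bruli(RNAi) differences were 0.14 for rbfox-2 and -0.05 for rbfox-3, and neither passed the threshold.

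celf-2 belongs to the same family as bruli itself and was at 11.6, 10.9 and 11.1 TPM in bruli(RNAi), 10.001, 9.44 and 13.0 TPM in mbnl(RNAi), 11.3 TPM in Smed-H2B(RNAi) and 8.81 TPM in Smedwi-2(RNAi), against 10.05, 10.1 and 11.6 TPM in control(RNAi). Its level did not differ detectably while bruli fell by 3.94 on the log2 scale (celf-2 difference 0.08, SE 0.12). ptbp-4, of the polypyrimidine tract-binding proteins that mostly repress exons, was at 8.73, 7.95 and 6.78 TPM in bruli(RNAi), 10.2, 9.05 and 9.41 TPM in mbnl(RNAi), 10.4 TPM in Smed-H2B(RNAi) and 6.29 TPM in Smedwi-2(RNAi), against 5.41, 9.25 and 7.95 TPM in control(RNAi). Its control(RNAi) libraries spanned those of bruli(RNAi).

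**Figure D2:**
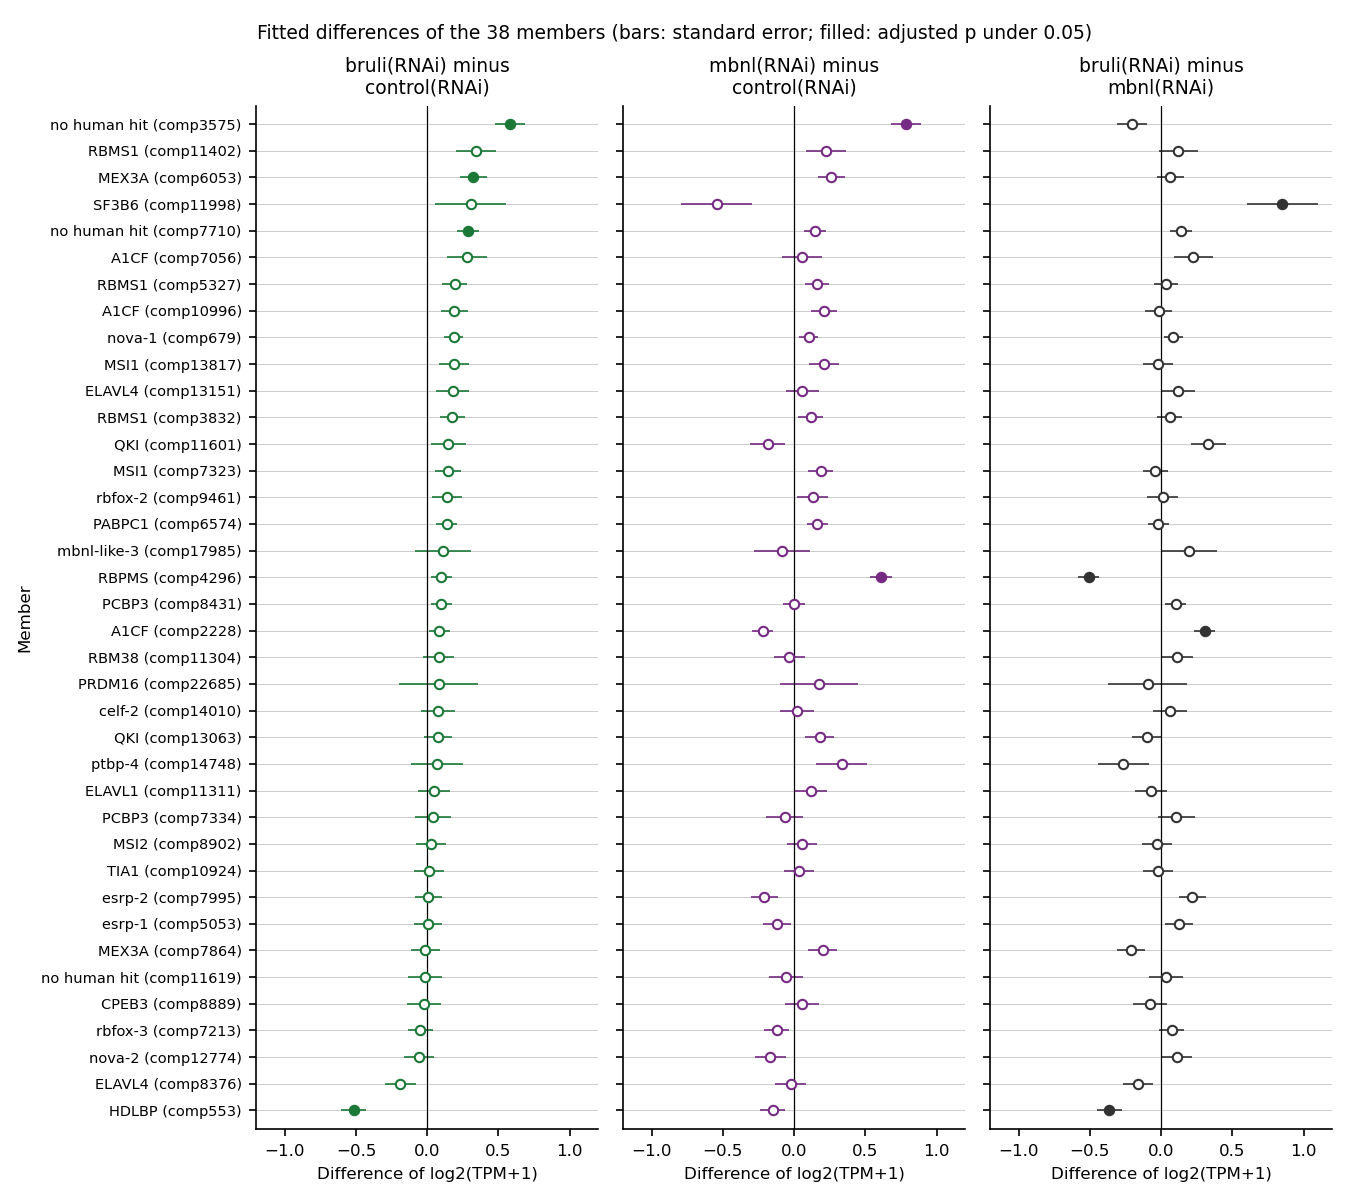
Fitted difference of log2(TPM+1) for each of the 38 members, with bars of 1 standard error, in bruli(RNAi) minus control(RNAi), mbnl(RNAi) minus control(RNAi) and bruli(RNAi) minus mbnl(RNAi), ordered by the leftmost panel. Filled points passed an adjusted p of 0.05 (4 members on the left, 2 in the middle and 4 on the right), and most of the rest lie within 0.25 of 0.

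The differences by role overlapped in bruli(RNAi). All 7 other RNA recognition motif proteins had differences above 0, between 0.09 and 0.34, and none passed the threshold. Of the 13 splicing regulators 11 were above 0, between -0.06 and 0.31 over the group, and none passed. Of the 14 stability and translation proteins 10 were above 0, with MEX3A (comp6053) called higher and HDLBP called lower. Of the 4 transcripts without a clear homologue 3 were above 0, between -0.02 and 0.58 over the group, and 2 were called higher, comp3575 and comp7710.

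Relatives of the members in the same families gave another picture. Paralogs were the annotated RNA-binding proteins that share a family with a member but were not members. A family was set by the start of the name of the best human match, so relatives under another name were not counted. After leaving out the knockdown targets 15 of them were tested, all with an X1-Xins difference above -1. Members and paralogs were thus split by their level in neoblasts against differentiated cells. Neoblast transcripts were low in bruli(RNAi), so the contrast is not independent of that split. In bruli(RNAi) 10 of these 15 were lower (all transcripts 11.3%) and 0 were higher, also 0 at an unadjusted p under 0.05, with a median difference of -0.53. Among all 241 other RNA-binding proteins tested without the knockdown targets, 135 were lower and 2 were higher, with a median of -0.39. Of the 14 neoblast RNA-binding proteins tested without bruli, 13 were lower, with a median of -0.85. The 3 lists share transcripts, since the 241 include the 15 paralogs and the 14 neoblast proteins. TIA1 comp3605 (difference -0.73) and PABPC1 comp11729 (-0.87), both lower, are paralogs and neoblast proteins at once. The levels of these neoblast transcripts moved with the treatment, and their part in the paralog differences was not tested.

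The 10 lower paralogs included members of the RBFOX, PTBP, MEX3 and TIA families. The RBFOX paralog comp6567 was at 9.31, 9.59 and 8.12 TPM in bruli(RNAi), against 16.3, 16.5 and 18.7 TPM in control(RNAi), a difference of -0.86 (limma adjusted p = 0.00222). The PTBP paralog comp2799 was at 64.6, 57.9 and 51.3 TPM in bruli(RNAi), against 98.2, 101.2 and 107 TPM in control(RNAi), a difference of -0.81 (limma adjusted p = 0.00111). Both paralogs fell in bruli(RNAi), whereas the libraries of rbfox-3 and ptbp-4 overlapped those of control(RNAi) and those of rbfox-2 lay above them. The MEX3 paralog comp1999, a match to MEX3D, was at 40.4, 35.5 and 23.0 TPM in bruli(RNAi), against 60.1, 57.4 and 55.6 TPM in control(RNAi), a difference of -0.83 (limma adjusted p = 0.00947). The TIA1 paralog comp2139 was at 33.5, 29.9 and 28.1 TPM in bruli(RNAi), against 53.4, 56.6 and 58.8 TPM in control(RNAi), a difference of -0.87 (limma adjusted p = 0.000915). Its member relative comp10924 was at 21.2, 20.1 and 23.9 TPM in bruli(RNAi), against 21.6, 21.4 and 21.5 TPM in control(RNAi). The other 5 tested paralogs did not pass the threshold in bruli(RNAi). Their differences were 0.16 for nova-3 (comp5632, limma adjusted p = 0.214), -0.18 for TIA1 comp8035 (limma adjusted p = 0.244), -0.11 for ELAVL4 comp10994 (limma adjusted p = 0.667), -0.13 for RBMS1 comp2612 (limma adjusted p = 0.302) and -0.22 for PABPC1 comp93 (limma adjusted p = 0.124).

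The members' share of the family's TPM was higher in bruli(RNAi) in most families. Members and paralogs were split by the X1-Xins difference, and neoblast transcripts were low in bruli(RNAi). The share is therefore not independent of that split. Of 10 families that held both members and paralogs, 8 had a member share above all 3 control(RNAi) libraries in all 3 bruli(RNAi) libraries. A share also moves when only the paralogs change, and no test was made of it. The levels of ptbp-4 and of the TIA1 member, for example, overlapped between bruli(RNAi) and control(RNAi). Shares were taken over all transcripts of a family, also those below the filter, such as the 1 PCBP paralog (comp25282). The lowest bruli(RNAi) share was close to the highest control(RNAi) share in PCBP (97.56% against 97.24%), SF3B6 (12.9% against 12.1%) and PABPC (1.51% against 1.38%). The RBFOX members held 82.1% to 84.3% of the family in bruli(RNAi), against 68.8% to 74.4% in control(RNAi). The MEX3 members held 65.4% to 76.9% in bruli(RNAi), against 52.8% to 55.2% in control(RNAi). In both families the member share stood higher and the bruli(RNAi) and control(RNAi) libraries did not overlap. ptbp-4 held 8.78% to 9.21% of the PTBP family in bruli(RNAi), against 4.06% to 6.47% in control(RNAi). The TIA1 member held 10.4% to 13.4% of its family in bruli(RNAi), against 7.54% to 7.89% in control(RNAi). The NOVA and ELAVL families were the exceptions, since their member shares overlapped between bruli(RNAi) and control(RNAi). In Smed-H2B(RNAi) 7 of the 10 shares lay above all controls and 2, those of NOVA and SF3B6, below, in Smedwi-2(RNAi) 2 lay above and 5 below, and in mbnl(RNAi) 1 family, PABPC, lay above and 0 below.

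**Figure D3:**
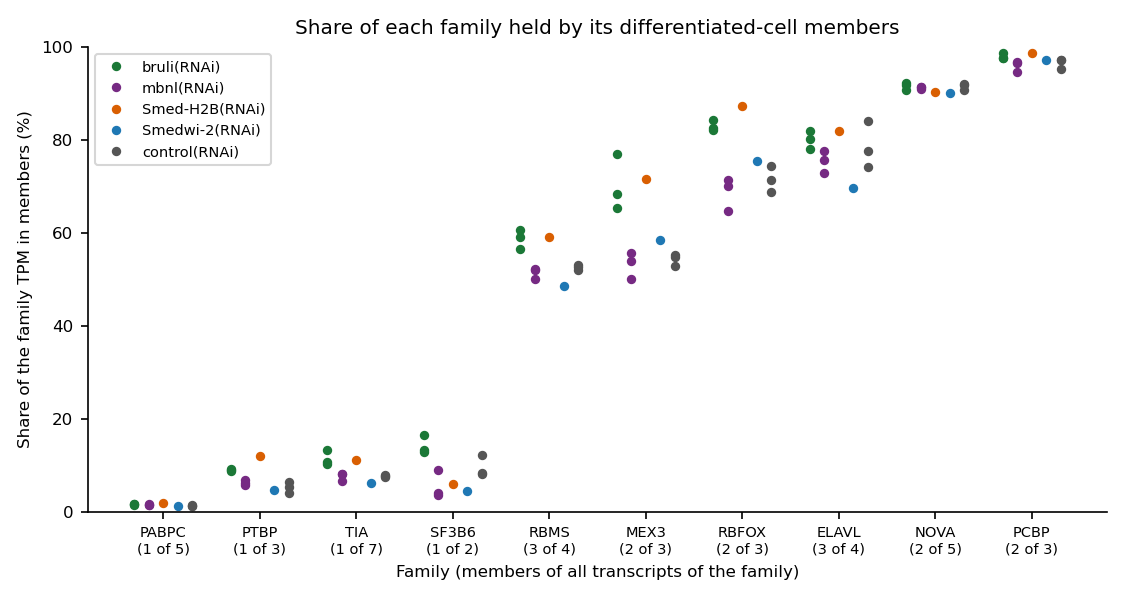
Share of each family's TPM held by its members, in percent, with 1 point per library and, within each family, bruli(RNAi) leftmost and control(RNAi) rightmost. The RBFOX, MEX3, RBMS, TIA and PTBP shares are higher in all 3 bruli(RNAi) libraries than in any control(RNAi) library, whereas the NOVA and ELAVL shares overlap.

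The mbnl(RNAi) libraries were compared with control(RNAi) to ask the same of a knockdown in which neoblast transcripts were not lost. In limma, 2 of 38 members were higher (all transcripts 4.31%) and 0 were lower (all transcripts 1.68%), with 3 members higher (all transcripts 19.1%) and 1 lower (all transcripts 5.06%) at an unadjusted p under 0.05. No tool other than limma was run. The median difference was 0.06, beside 0.11 over all transcripts, and it took the other sign when libraries were put on a common median (-0.07) or a common distribution (-0.06). All 3 mbnl(RNAi) libraries lay above all 3 control(RNAi) libraries in 6 members (all transcripts 20%) and below them in 2 (all transcripts 5.93%). The 95% interval lay inside ±0.5 for 31 of 38 members, beside 54.0% of all transcripts and 12 of 15 paralogs.

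RBPMS (comp4296), an RNA recognition motif protein, had the smallest adjusted p of the members. It was at 63.3, 61.6 and 73.0 TPM in mbnl(RNAi), at 46.9, 42.4 and 48.8 TPM in bruli(RNAi), at 52.1 TPM in Smed-H2B(RNAi) and at 44.3 TPM in Smedwi-2(RNAi), against 39.4, 42.3 and 46.9 TPM in control(RNAi). All 3 mbnl(RNAi) libraries lay above every other library. The difference from control(RNAi) was 0.61 (SE 0.08, limma adjusted p = 0.00523), or 0.67, 0.53 and 0.63 at days 20, 25 and 30. The second member called higher was comp3575, with a difference of 0.79 in mbnl(RNAi) (SE 0.11, limma adjusted p = 0.00700). Both comparisons use the same control(RNAi) libraries, which were the 3 lowest for comp3575. Both calls held without any single library, but not without day 25 (limma adjusted p = 0.0980 for RBPMS and 0.0615 for comp3575) or day 30 (limma adjusted p = 0.0680 for RBPMS and 0.0845 for comp3575).

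mbnl-like-3 is a member and was itself a target of the mbnl(RNAi) dsRNA mix. The primers from the study's list that made its dsRNA template are shown because they define what was targeted, each written 5′ to 3′:
mbnl-like-3 forward: ctgctggggtgtttgatagata
mbnl-like-3 reverse: ccctcaacagctgtgtcattta
It was at 2.78, 1.62 and 2.81 TPM in mbnl(RNAi), at 2.87, 2.68 and 2.97 TPM in bruli(RNAi), at 4.12 TPM in Smed-H2B(RNAi) and at 1.53 TPM in Smedwi-2(RNAi), against 2.67, 2.03 and 3.03 TPM in control(RNAi). The mbnl(RNAi) and control(RNAi) libraries overlapped, and the difference was -0.08 with a 95% interval of -0.53 to 0.36 (limma adjusted p = 0.834). The difference of mbnl-1 was -0.99 (limma adjusted p = 0.00113), that of mbnl-like-1 (comp7489) -1.96 (limma adjusted p = 0.000170) and that of mbnl-like-2 (comp4169) -1.56 (limma adjusted p = 0.000558). These 3 targets fell, whereas a change of mbnl-like-3 within its interval was not detectable at its level of 1.62 to 3.03 TPM in these groups.

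A1CF (comp2228) had the clearest difference below 0 among the members in mbnl(RNAi). It was at 84.5, 93.1 and 90.3 TPM in mbnl(RNAi), at 112, 112 and 108 TPM in bruli(RNAi), at 124 TPM in Smed-H2B(RNAi) and at 86.0 TPM in Smedwi-2(RNAi), against 111, 102 and 99.0 TPM in control(RNAi). The mbnl(RNAi) libraries lay below the control(RNAi) libraries, and the difference was -0.22 (SE 0.07, limma adjusted p = 0.112). With each library centred on its median, the difference was -0.35 (limma adjusted p = 0.0431), which gave 1 lower member (all transcripts 3.6%).

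**Figure D4:**
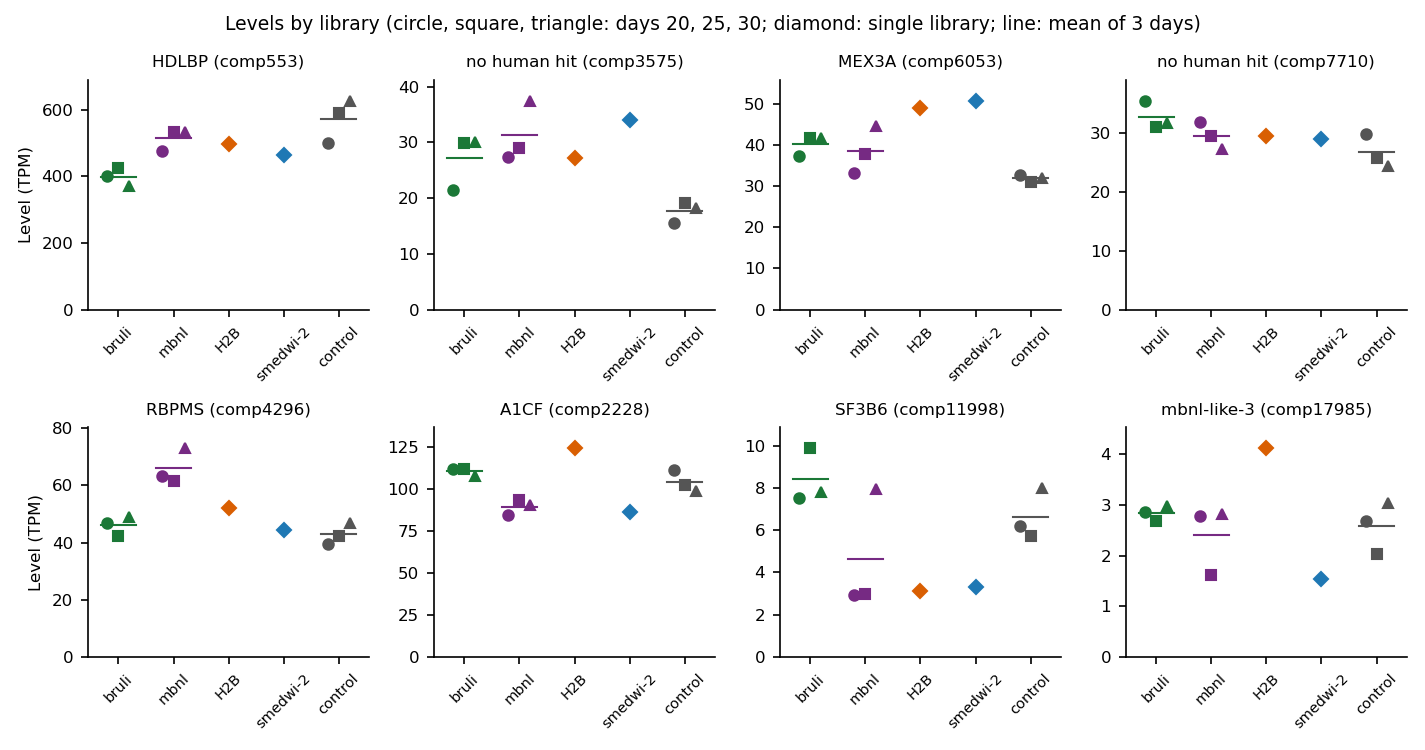
Level in TPM of the 7 members called in any of the 3 comparisons and of mbnl-like-3, with 1 point per library, a symbol per day and a line at the mean of the 3 days. HDLBP is low in bruli(RNAi), RBPMS is high in mbnl(RNAi), comp3575 is lowest in control(RNAi), and mbnl-like-3 overlaps between mbnl(RNAi) and control(RNAi).

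Set directly against mbnl(RNAi), the bruli(RNAi) libraries had 2 of 38 members higher (all transcripts 5.24%) and 2 lower (all transcripts 20%). The median difference of the members was 0.05, beside -0.11 over all transcripts. All 3 bruli(RNAi) libraries lay above all 3 mbnl(RNAi) libraries in 5 members (all transcripts 9.3%) and below them in 3 (all transcripts 30%). The lower members were RBPMS, with a difference of -0.51 (SE 0.08, limma adjusted p = 0.00201), and HDLBP, with -0.37 (SE 0.09, limma adjusted p = 0.0154). The RBPMS call held without any single library. The HDLBP call did not hold without the bruli(RNAi) library of day 25 or 30 (limma adjusted p = 0.0618 and 0.0694) or the mbnl(RNAi) library of day 25 or 30 (limma adjusted p = 0.0696 and 0.0765).

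The higher members were A1CF (comp2228) and SF3B6. A1CF differed by 0.31 (SE 0.07, limma adjusted p = 0.0155), and the call did not hold without the bruli(RNAi) library of day 25 or 30 (limma adjusted p = 0.0755 and 0.0566) or the mbnl(RNAi) library of day 20 or 25 (limma adjusted p = 0.0666 and 0.0523). SF3B6 was at 7.55, 9.89 and 7.83 TPM in bruli(RNAi), against 2.93, 2.98 and 7.98 TPM in mbnl(RNAi). It was at 3.10 TPM in Smed-H2B(RNAi) and at 3.30 TPM in Smedwi-2(RNAi), against 6.21, 5.72 and 7.98 TPM in control(RNAi). Its mbnl(RNAi) libraries of days 20 and 25 were low, whereas that of day 30 equalled the control(RNAi) library of its day to 3 digits. The difference of 0.85 (SE 0.25, limma adjusted p = 0.0346) therefore had its direction at 2 of the 3 days. It did not pass without the bruli(RNAi) library of day 20 or 25 (limma adjusted p = 0.0891 and 0.181), the mbnl(RNAi) library of day 20 or 25 (limma adjusted p = 0.129 and 0.166) or the control(RNAi) library of day 25 (limma adjusted p = 0.0502), nor without the day block (limma adjusted p = 0.0574).

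Over the 3 comparisons the members had 10 calls. Leaving out day 25 in all groups, which leaves 2 libraries a group, cost all 10 calls (limma adjusted p = 0.0542 to 0.327), leaving out day 30 cost 8 (limma adjusted p = 0.0648 to 0.214), and leaving out day 20 cost 2, those of comp7710 and SF3B6 (limma adjusted p = 0.0522 and 0.127).

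With the libraries put on a common median, the higher members in bruli(RNAi) against mbnl(RNAi) numbered 8 (all transcripts 14%) and the lower 1 (all transcripts 10.6%), with a member median of 0.22 beside 0.07 over all transcripts. Of all calls over the 15492 transcripts, 56.9% were then higher in bruli(RNAi), beside 20.7% as deposited. For bruli(RNAi) against control(RNAi) that share was 46.8%, beside 37.3% as deposited. For mbnl(RNAi) against control(RNAi) it was 27.6%, beside 71.9% as deposited.

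The Smed-H2B(RNAi) and Smedwi-2(RNAi) libraries had no replicates, so their differences from the mean of the 3 control(RNAi) libraries have no test, and the control libraries are those of days 20 to 30. A difference of at least 0.7 on the log2 scale that lay outside the range of the 3 controls was counted. In Smed-H2B(RNAi), which the study used as a treatment that impairs neoblast maintenance, 0 of 38 members were past this limit upward (all transcripts 3.79%) and 1 downward (all transcripts 6.28%). The median member difference was 0.14, beside 0.02 over all transcripts, and 21 of 38 members lay above all 3 controls (all transcripts 34.3%) and 3 below (all transcripts 32.4%). The largest member differences above 0 were those of MEX3A (comp6053) at 0.61, comp3575 at 0.60 and mbnl-like-3 at 0.53. SF3B6 was past the limit downward at -0.89, and HDLBP at -0.20 and PRDM16 at -0.18 came next. PRDM16 was at 1.47 TPM in Smed-H2B(RNAi), 2.75, 1.34 and 1.93 TPM in bruli(RNAi), 2.18, 1.76 and 2.55 TPM in mbnl(RNAi) and 2.40 TPM in Smedwi-2(RNAi), against 1.14, 2.36 and 2.01 TPM in control(RNAi), so that its Smed-H2B(RNAi) library lay within the controls.

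In Smedwi-2(RNAi), used by the study as a treatment that impairs neoblast differentiation, 1 member was past the limit upward (all transcripts 4.97%) and 1 downward (all transcripts 6.44%). The median member difference was -0.09, beside 0.02 over all transcripts, with 8 of 38 members above all 3 controls (all transcripts 36%) and 17 below (all transcripts 32.4%). The member past the limit upward was comp3575 at 0.92, followed by MEX3A (comp6053) at 0.65 and MEX3A (comp7864) at 0.44. SF3B6 was past the limit downward at -0.82, followed by mbnl-like-3 and MSI2, both at -0.49. MSI2, a Musashi protein known as a translational regulator, was at 16.6 TPM in Smedwi-2(RNAi), 23.1, 24.1 and 25.2 TPM in bruli(RNAi), 26.8, 22.6 and 24.6 TPM in mbnl(RNAi) and 21.1 TPM in Smed-H2B(RNAi), against 20.7, 24.8 and 25.9 TPM in control(RNAi). Smedwi-2(RNAi) held the lowest MSI2 level of the 11 libraries. SF3B6 was not past the limit in Smedwi-2(RNAi) without the control(RNAi) library of day 30.

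**Figure D5:**
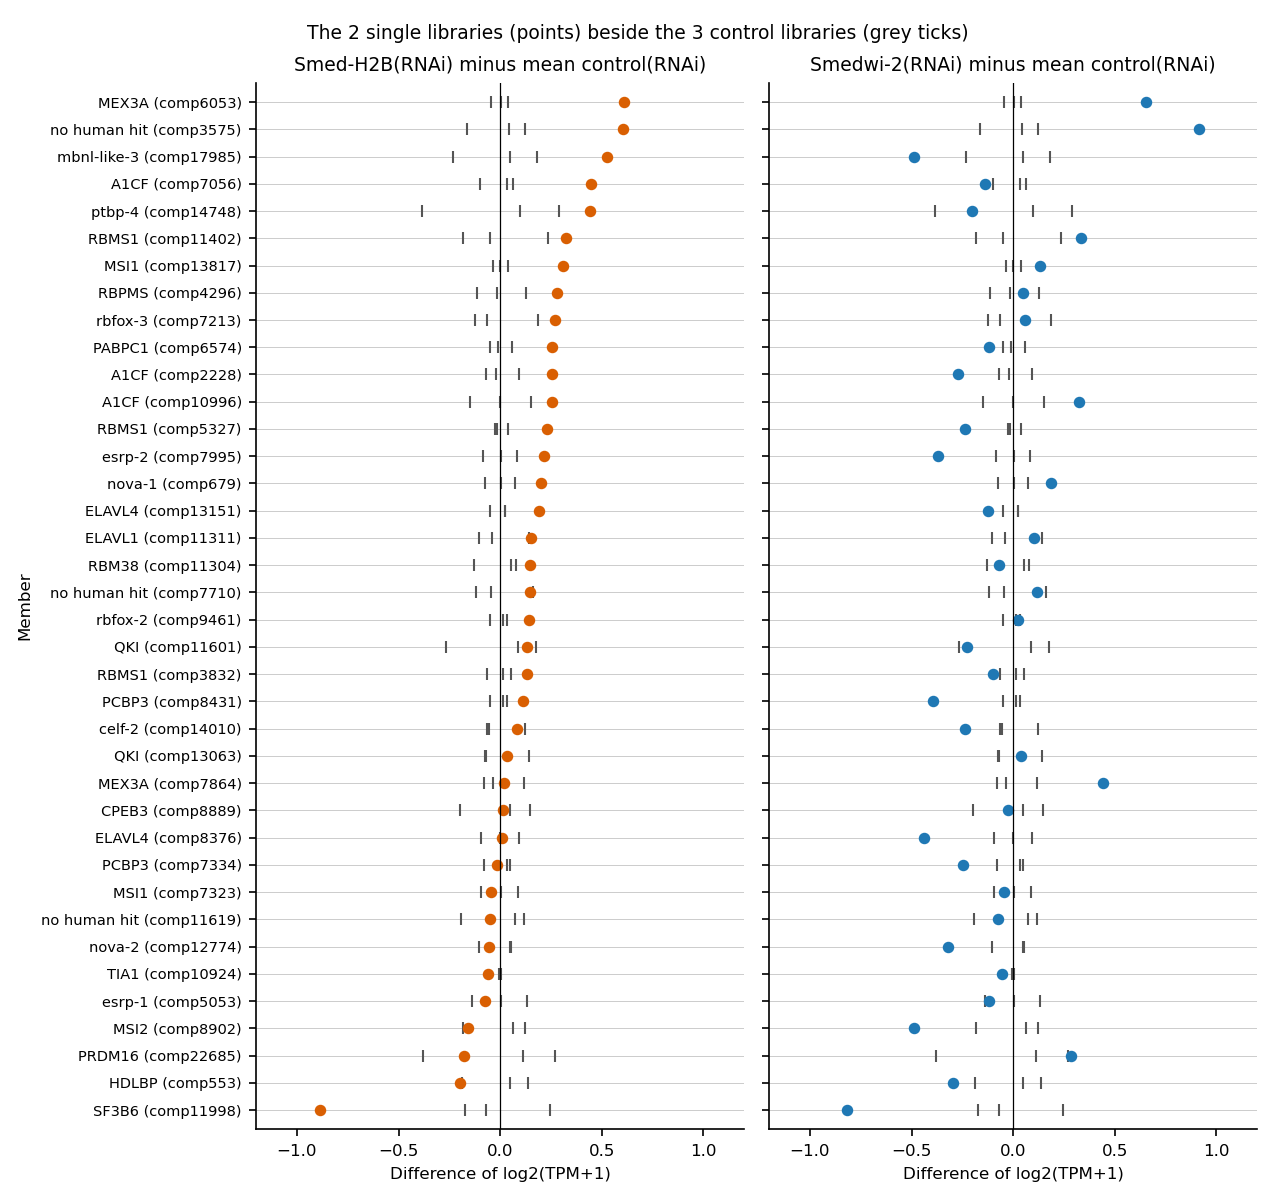
Difference of log2(TPM+1) of each member in the single Smed-H2B(RNAi) and Smedwi-2(RNAi) libraries from the mean of the 3 control(RNAi) libraries (coloured points), with the deviation of each control(RNAi) library as grey ticks, ordered by the Smed-H2B(RNAi) difference. Most Smed-H2B(RNAi) points lie right of 0 and most Smedwi-2(RNAi) points left of it, and SF3B6 lies far left in both.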

How the data were processed

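RNA-seq of 11 whole-worm libraries was used. Per the methods and the submitters' processing notes, reads were trimmed, freed of rRNA, mapped to a planarian transcriptome with Bowtie2 2.1.0 and counted per transcript with HTSeq 0.6.1p1 (CASAVA 1.8.2 is also named). The authors deposited TPM (transcript abundances scaled by length to a fixed total of 1000000 per library), which keep no depth, and how counts became TPM is not given in the sources used here. Precision therefore rests on the number of libraries. No genome coordinates were used, since the IDs are those of a transcriptome assembly.

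Differences were fitted with limma 3.58.1 (R 4.3.3, mean-variance trend) on log2(TPM+1) over 15492 transcripts, with 3 groups and day as a block (4 residual degrees of freedom), Benjamini-Hochberg threshold 0.05. The labels give the day, which pairs the libraries. Deviations from group means correlated by 0.15 on average over the 9 same-day pairs (range -0.01 to 0.26), against -0.07 over other pairs.

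Members and lists were chosen with earlier results of these data known. Values in all libraries are given for members called in any comparison, for mbnl-like-3 and the members the study named, and for the 3 largest rises and falls in each single library. Paralogs are named where they share a family with a described member. Alternatives were other pseudocounts, filters, scalings (a common median, a common distribution, and controls quantile-normalized among themselves, as in the methods of the study), designs, thresholds and left-out libraries or days. The neoblast list was used as the marker list, and no markers of differentiated cells other than the members were used.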

Additional observations from a re-analysis of the deposited data

How the results depend on the processing

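Alternatives to the differences of single members numbered 1101, over the members called in any comparison and those the study named. Of these, 1030 stayed on the same side of the threshold, 62 lost the call and 9 gained it. All 62 losses fell on the 10 calls, since a difference without a call had none to lose. A sign change with a call in either fit occurred in 0 cases, and sign changes of differences without a call were not counted. Leaving out libraries or days, higher members numbered 0 to 3 (bruli(RNAi) against control(RNAi)), 0 to 2 (mbnl(RNAi) against control(RNAi)) and 0 to 3 (bruli(RNAi) against mbnl(RNAi)), and lower members 0 to 1, 0 to 0 and 0 to 3. Their medians ran from 0.087 to 0.134, 0.058 to 0.119 and -0.0042 to 0.058 (0.0037 without day 20). For Smedwi-2(RNAi) the lower count was 0 to 1.

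For bruli(RNAi) against control(RNAi), higher members numbered 1 with no filter on low values, with no replicate block, in a fit of the 2 groups alone and when the trend was dropped, and lower members 0 with an X1-Xins limit of -3. For mbnl(RNAi) against control(RNAi), higher members numbered 1 with no filter, lower members 1 with median centring, and the median was -0.062 with quantile normalization and -0.072 with median centring. For bruli(RNAi) against mbnl(RNAi), higher members numbered 1 with no filter, 6 with quantile normalization, 8 with median centring, 1 with no replicate block and 0 when the trend was dropped. Lower members numbered 1 with no filter, with median centring and with the X1-Xins limit of -3, and the median was 0.17 with quantile normalization and 0.22 with median centring. In Smed-H2B(RNAi) the lower count was 0 with a pseudocount of 5 or a limit of 1, and the median was 0.11 with a pseudocount of 5 and 0.25 with the X1-Xins limit of -3. In Smedwi-2(RNAi) the higher count was 0 with a limit of 1, and the lower count 0 with a pseudocount of 5 or a limit of 1. The replicate block changed no other call of a named member than those of MEX3A (comp6053), comp7710 and SF3B6. The cause of these changes was not tested.

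Over all transcripts, calls numbered 2803, 928 and 3915 in the 3 comparisons, in the order above. They numbered 1067, 133 and 2356 with no filter, 351 in the mbnl(RNAi) comparison with no replicate block, 1559 and 301 in the comparisons with control(RNAi) in fits of 2 groups alone, 153 in the mbnl(RNAi) comparison without the trend, and 201 to 3481, 44 to 1104 and 704 to 4570 when libraries or days were left out. TPM keep no depth, so whether a low member such as mbnl-like-3 rests on few reads is unknown.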
